A study of Mus musculus with 6 samples.

Results

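The adrenergic receptors of the heart and the proteins that switch them off were followed through 9 genes, taken from the deposited table by gene symbol. These are 4 receptors (Adrb1, Adrb3, Adra1a and Adra1b) and 5 partners (Grk5, Arrb1, Arrb2, Rgs2 and Gnas). All 9 symbols were found among the 21989 in the table. The samples were left ventricles of male C57BL/6 mice, a group given ISO at 10 mg/kg/d and a group given saline in equal volume, both under the skin for 3 weeks. ISO commonly stands for isoproterenol, an agonist of the beta-adrenergic receptors, and the submitters describe the treated animals as a model of heart failure. There were 3 libraries a group, numbered as in the labels, and the animals' age is not stated there. The labels name no single animals, so every p-value here rests on the scatter of 3 samples a group, some of which may be technical.

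Noradrenaline from sympathetic nerves and adrenaline from the blood act on these receptors. Beta receptors couple through Gs, whose alpha subunit is encoded by Gnas, to adenylyl cyclase and cyclic AMP, while alpha-1 receptors couple through Gq to phospholipase C. In desensitization, a receptor kinase such as GRK5 phosphorylates the occupied receptor, a beta-arrestin then binds it, blocks the G protein and takes the receptor into the cell, and an RGS protein such as RGS2 shortens the signal of the G protein itself. Long beta stimulation and heart failure are known for a loss of beta-1 receptors and a gain of receptor kinases in heart muscle.

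The values are FPKM, a count of fragments divided by the gene's length and by the library's total, so levels of different genes can be set side by side. Library totals recovered from the values ran from 2776152 reads in saline 3 to 9862363 reads in saline 1. Saline 3 stood apart, with Pearson r of 0.788 to 0.830 with the other libraries across genes. It was the lowest of the 6 libraries for 52.8% of the 12269 genes tested and the highest for 22.4%. It also held a summed level of 739 FPKM of 6 liver markers, against 4.21 to 30.7 FPKM elsewhere, and 218 FPKM of 6 airway markers, against 1.54 to 13.4 FPKM in the others except ISO 3 (196 FPKM). The 12 markers listed for ventricular muscle summed to 30819 to 48375 FPKM in saline and 13058 to 22462 FPKM in ISO. Of the 12, 5 were lower in every ISO library, while others overlapped. Myl2 was at 2566, 526 and 9101 FPKM in saline and at 1985, 1962 and 140 FPKM in ISO. The 7 atrial muscle markers also had high sums, at 26553, 23946 and 10444 FPKM in saline and 18076, 18219 and 15315 FPKM in ISO. Their lowest sum was in saline 3. Among them, Myl7 was at 16664, 16049 and 7469 FPKM in saline and at 11550.5, 11487 and 8354 FPKM in ISO. It was above Myl2 in every library except saline 3. How much atrial muscle the libraries held was not tested. In the same libraries 9 macrophage markers summed to 359 to 603 FPKM in saline and 781 to 1725 FPKM in ISO, 8 red blood cell markers to 3254 to 6705 and 14094 to 29595 FPKM, and 7 fibroblast markers to 885 to 1125 and 1517 to 1622 FPKM. The part of these differences in the results below was not tested, and in whole tissue fewer cells of a type and less RNA per cell cannot be told apart.

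Of the 9 genes, 8 had a mean of at least 1 FPKM and entered the limma test on log2(FPKM + 1), and Adra1a did not. None of the 8 differed between ISO and saline at an adjusted p of 0.05, and none had an unadjusted p under 0.05. Over all genes tested, limma called 0% at the adjusted threshold and 6.31% at an unadjusted p under 0.05. The smallest adjusted p of any gene was 0.699. The log2 fold changes of the 8 genes had a median of -0.044, with 3 higher and 5 lower in ISO. The median over all genes was 0.20, and 0.021 after scaling by the median of ratios, so small positive values here are not above the general shift. Fold changes on this scale understate the change of genes at a low level.

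The groups did not overlap for 2 of the 9 genes, Grk5, which was higher in every ISO library than in any saline library, and Adra1b, which was lower. Such separation was seen for 16.5% of all genes tested, 12.8% with ISO higher and 3.72% with ISO lower, so 1 gene upward among 9 is near the share over all genes, and 1 gene downward is too few to tell from it. Without saline 3, Grk5 was still the only member separated upward, and Adra1b, Adrb1 and Rgs2 were separated downward. With that library left out, 18.3% of all genes were separated upward and 9.61% downward. Without ISO 3, Arrb1 and Arrb2 joined Grk5 above saline, where 20.1% of all genes were separated upward and 8.08% downward.

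**Figure D1:**
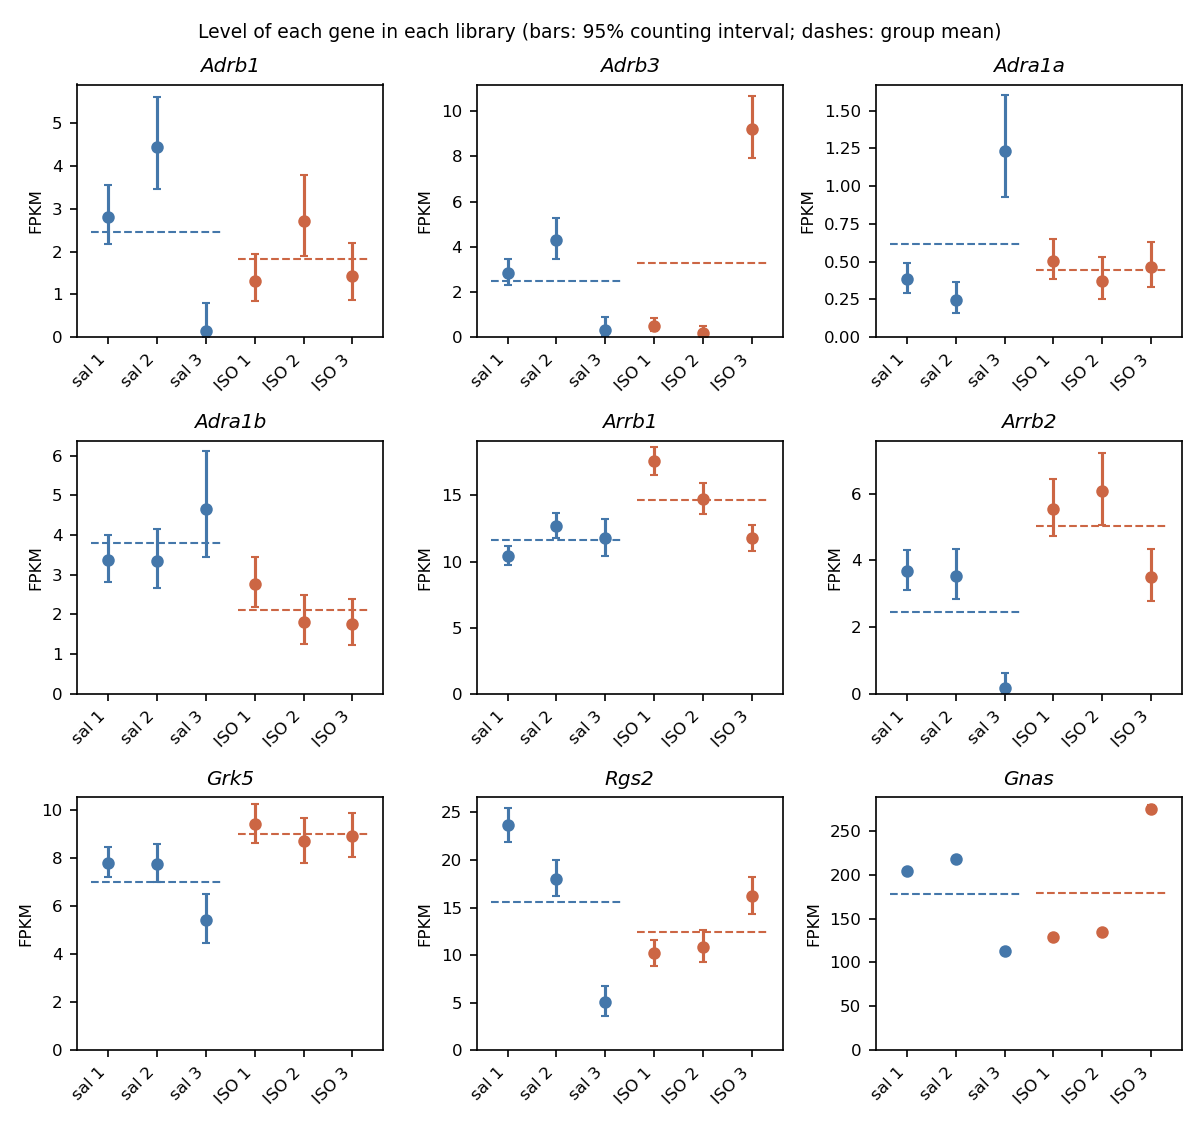
FPKM of the 9 genes in the 6 libraries, 1 panel per gene with its own axis; each mark is 1 library, saline or ISO. Grk5 is higher in all 3 ISO libraries (8.70 to 9.41 FPKM) than in any saline library (5.42 to 7.81 FPKM), and Adra1b is lower (1.75 to 2.76 against 3.35 to 4.64 FPKM); the other panels overlap.

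Adrb1 encodes the beta-1 receptor, the main beta receptor of heart muscle and a target of ISO. On chromosome 19 (56722117 to 56725150, RefSeq, GRCm38.p6), its levels were 2.81, 4.46 and 0.145 FPKM in libraries 1 to 3 of the saline group, then 1.31, 2.73 and 1.43 FPKM in those of the ISO group. The highest and the lowest value were both saline libraries, and ISO lay between them. Saline 3 held a single Adrb1 read, which allows 0.00366 to 0.806 FPKM (95%, exact Poisson, counting error only). Its level was 0.042 of that in saline 1 and 2 together (0.0011 to 0.237, counting error only). On the log2(FPKM + 1) scale, saline 3 was at least as far from saline 1 and 2 for 8.93% of all genes tested. The log2 fold change of Adrb1 was -0.06 (SE 0.59, adjusted p = 0.968). Without saline 3, all 3 ISO libraries were below saline 1 and 2, and the log2 fold change was -0.73 (SE 0.30, adjusted p = 0.486). In that fit it was 1 of 2 members with an unadjusted limma p under 0.05, the other being Rgs2, and 10.2% of all genes passed that level. The sign was positive without any 1 of saline 1, saline 2, ISO 1 or ISO 3, and reached 0.40 without saline 2.

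Adrb3 encodes the beta-3 receptor, best known from fat cells, where it drives lipolysis and heat production. It was at 2.84, 4.30 and 0.309 FPKM in saline and at 0.503, 0.166 and 9.21 FPKM in ISO. A single ISO library, ISO 3, held the highest value of the 6 and ISO 2 the lowest. The reads behind these levels were 98, 95 and 3 in saline and 13, 3 and 181 in ISO. Across libraries its coefficient of variation exceeded that of 97.0% of the genes tested. The log2 fold change was -0.19 (SE 0.90, adjusted p = 0.937). Leaving out ISO 3 gave -1.17 and leaving out ISO 2 gave 0.39, so its sign was set by single libraries.

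Among the 3 genes closest to Adrb3 over the 6 libraries, of 8235 genes with a mean of at least 5 FPKM, were Hic1 and Vps72 (Pearson r of log2 values 0.994 for each). These points share their libraries and depths, and 56 genes reached 0.95, so the r is a description only. Vps72 was at 30.7, 36.5 and 22.9 FPKM in saline and 22.5, 22.0 and 43.3 FPKM in ISO, with ISO 3 the highest library as for Adrb3.

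Fat cell genes also varied between libraries. The 8 adipocyte markers summed to 153, 351 and 376 FPKM in saline and 113, 104 and 472 FPKM in ISO. Adipoq, which encodes the fat cell hormone adiponectin, was at 145 FPKM in ISO 3 and at 17.2 to 51.0 FPKM in the others. Ucp1, the uncoupling protein of brown fat, was highest in saline 3 (172 FPKM), a library in which Adrb3 was at 0.309 FPKM. Of the other adipocyte markers, Plin1, Cidec, Lep and Lipe were highest in ISO 3, Cidea in saline 3 and Retn in saline 1. Whether fat cells took part in the Adrb3 values was not tested.

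**Figure D2:**
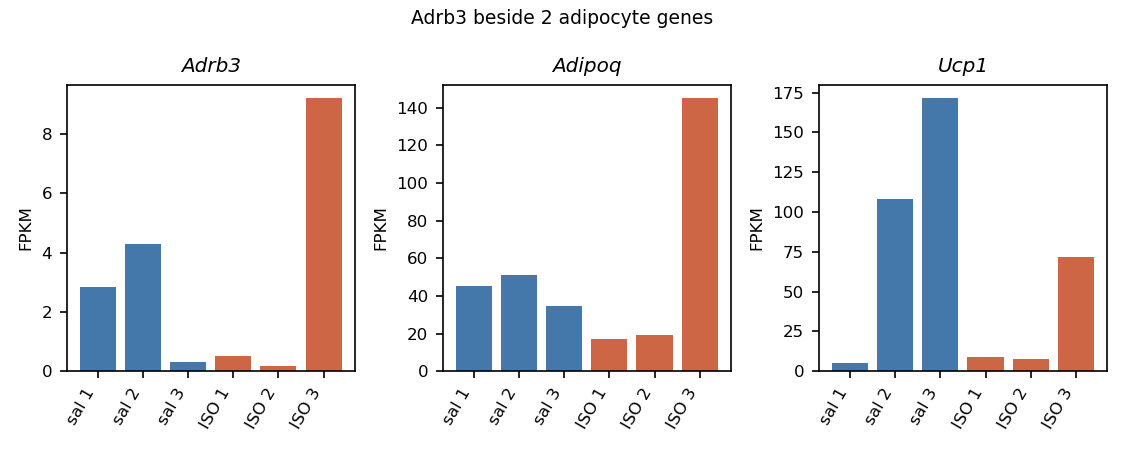
FPKM of Adrb3 and the adipocyte genes Adipoq and Ucp1; each bar is 1 library, in the order saline 1 to 3 (blue) and ISO 1 to 3 (orange), each panel with its own axis from 0. Adrb3 and Adipoq are highest in ISO 3 (9.21 and 145 FPKM), while Ucp1 is highest in saline 3 (172 FPKM).

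Adra1b encodes the alpha-1B receptor, which together with alpha-1A carries the alpha-1 response of heart muscle. It lies on chromosome 11 (43774605 to 43901250) and was at 3.37, 3.35 and 4.64 FPKM in saline (3.79 ± 0.740, SD, n = 3) and at 2.76, 1.80 and 1.75 FPKM in ISO (2.10 ± 0.571, SD, n = 3). Every ISO library was below every saline library. Reads were 129, 82 and 50 in saline and 79, 36 and 38 in ISO. The counting intervals of the closest pair, ISO 1 (2.19 to 3.44 FPKM) and saline 2 (2.67 to 4.16 FPKM), overlap. The log2 fold change was -0.63 (SE 0.28, adjusted p = 0.699). Without saline 3 it was -0.51 (SE 0.23, adjusted p = 0.505).

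Adra1a encodes the alpha-1A receptor. It had the lowest group means of the 9 genes, with 0.384, 0.246 and 1.23 FPKM in saline and 0.505, 0.373 and 0.464 FPKM in ISO. Over its length of 16110 bases these values rest on 25 to 61 reads a library. Saline 3 was the highest, at 3.72 times the level in saline 1 and 2 (2.61 to 5.29), while the ISO libraries lay within 0.373 to 0.505 FPKM. In a limma fit without the filter on low values, its log2 fold change was -0.12 (SE 0.23, adjusted p = 0.853).

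Saline 3 thus had the lowest level of Adrb1 and the highest of both Adra1a and Adra1b. A ratio of alpha-1 to beta receptor FPKM was taken among the 4 member receptors only, as Adra1a plus Adra1b over Adrb1 plus Adrb3. Receptors outside the members, such as Adra1d, are not in it. This ratio was 0.665, 0.411 and 13.0 in saline and 1.81, 0.752 and 0.208 in ISO. Saline 3 and ISO 3 were the extremes, and the groups overlapped (difference of log2 ratios -1.22, two-sided exact permutation p = 0.7). Adrb1 made up 29.9%, 36.1% and 2.29% of the summed FPKM of the 4 receptors in saline and 25.7%, 53.8% and 11.1% in ISO (exact permutation p = 0.8). Set against the ventricular muscle markers, Adrb1 also overlapped between groups (difference of log2 ratios 1.47 with all libraries and -0.26 without saline 3; exact permutation p = 0.7 with all). These were 3 of 5 single values compared, all with an adjusted p of 1, and 3 against 3 libraries cannot give less than 0.1.

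Grk5, the receptor kinase among the 9 genes, was at 7.81, 7.76 and 5.42 FPKM in saline (7.00 ± 1.37, SD, n = 3) and at 9.41, 8.70 and 8.93 FPKM in ISO (9.01 ± 0.359, SD, n = 3). The 3 ISO libraries were close together and all above saline. The log2 fold change was 0.34 (SE 0.24, adjusted p = 0.699), and 0.19 (SE 0.16, adjusted p = 0.747) without saline 3. It was 0.15 with median-of-ratios scaling and 0.099 with quantile normalization. The upper counting limits of saline 1 and 2 (8.46 and 8.58 FPKM) fell short of the ISO values but not of all their lower limits (7.81 to 8.63 FPKM). Grk5 (chromosome 19, 60889560 to 61095968) shares genome positions with Zfp950, which was at 6.65 to 24.0 FPKM. The sources used here do not give the strand setting of the counting, so reads in the overlap may be split between them.

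Arrb1 was above Arrb2 in every library, most of all in saline 3. Arrb1 encodes beta-arrestin 1 and was at 10.4, 12.7 and 11.8 FPKM in saline and at 17.6, 14.7 and 11.8 FPKM in ISO. ISO 1 and ISO 2 were above all saline libraries and ISO 3 was among them (log2 fold change 0.30, SE 0.24, adjusted p = 0.699). With median-of-ratios scaling it was 0.10. Arrb2 encodes beta-arrestin 2 and was at 3.67, 3.54 and 0.175 FPKM in saline and at 5.53, 6.08 and 3.50 FPKM in ISO. Its saline 3 value rests on 2 reads, against 149 and 92 in saline 1 and 2. At 1.02 (SE 0.56, adjusted p = 0.699), its log2 fold change was the furthest from 0 of the 8 genes tested, and it was 0.36 (SE 0.24, adjusted p = 0.659) without saline 3.

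The ratio of Arrb2 to Arrb1 was 0.352, 0.279 and 0.0149 in saline and 0.314, 0.413 and 0.298 in ISO. Apart from saline 3 the libraries stayed within 0.279 to 0.413 (difference of log2 ratios 1.58 with and 0.11 without saline 3; exact permutation p = 0.4 with it). The ratio of Grk5 to Adrb1, kinase to receptor, was 2.78, 1.74 and 37.5 in saline and 7.20, 3.19 and 6.24 in ISO. Every ISO library exceeded saline 1 and 2, and saline 3 exceeded all of them. The difference of log2 ratios was -0.11 with all libraries (exact permutation p = 1) and 1.25 without saline 3 (exact permutation p = 0.2, the smallest that 3 against 2 libraries can give).

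Rgs2 encodes a GTPase-activating protein with a preference for Gq, and its mRNA is known to respond to cyclic AMP and calcium. It was at 23.7, 18.0 and 5.03 FPKM in saline and at 10.2, 10.9 and 16.2 FPKM in ISO. Saline 1 and 2 were above all ISO libraries and saline 3 below all of them. The log2 fold change was -0.10 (SE 0.53, adjusted p = 0.942), and 0.30 when saline 1 was left out. Without saline 3 it was -0.72 (SE 0.25, adjusted p = 0.415). When limma gave each library a quality weight, saline 3 received 0.0772 and ISO 3 0.449, against 1.04 to 5.50 for the others. The weights were estimated from these same 6 libraries. Saline 3 held the lowest saline value of Rgs2 and ISO 3 the highest ISO value. In that fit Rgs2 was the only 1 of the 8 members tested that was called (log2 fold change -0.91, adjusted p = 0.0338), among 768 of 12269 genes called.

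Gnas encodes the alpha subunit of Gs and was by far the most abundant of the 9, at 204, 218 and 113 FPKM in saline and 129, 134 and 275 FPKM in ISO. The group means were 178 ± 57.1 and 180 ± 82.8 FPKM (SD, n = 3 each), and the log2 fold change was -0.02 (SE 0.40, adjusted p = 0.982). ISO 3 was the highest library and saline 3 the lowest, the other saline libraries lying above ISO 1 and 2. Leaving out ISO 1 turned the log2 fold change to 0.16, and leaving out ISO 3 gave -0.38. The locus on chromosome 2 (174284320 to 174346744) has several promoters and overlaps the antisense gene Gnasas1, and the table gives 1 value for all of its transcripts. Over the 6 libraries Gnas had a Pearson r of 0.977 with Adrb3 on the log2 scale, and 0.988 without saline 3. Hic1 was among the 3 nearest genes of both.

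**Figure D3:**
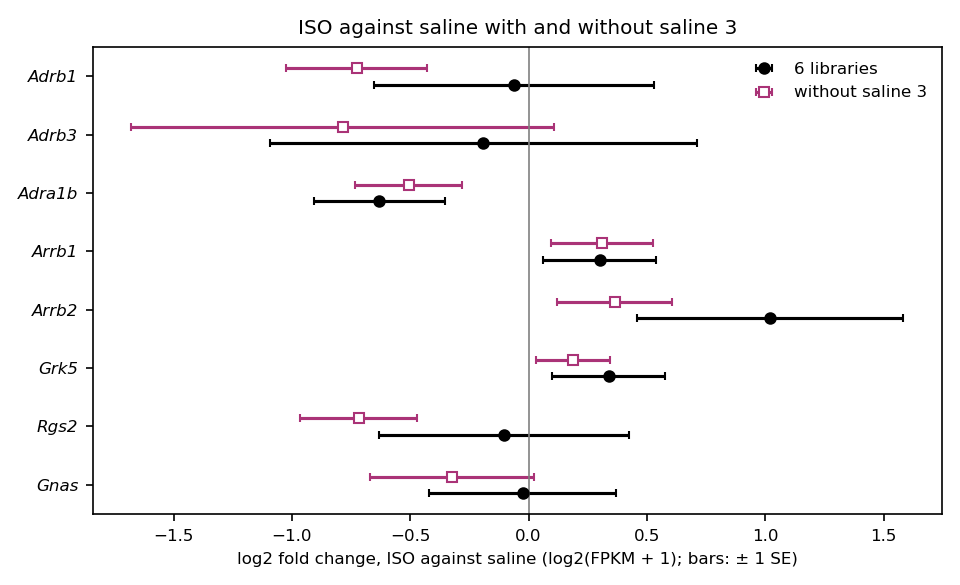
Log2 fold change of ISO against saline for the 8 genes tested, on the log2(FPKM + 1) scale; black points use all 6 libraries, open squares leave out saline 3, and bars are ± 1 SE. Without saline 3, Adrb1 moves from -0.06 to -0.73, Rgs2 from -0.10 to -0.72 and Arrb2 from 1.02 to 0.36, while Arrb1 goes from 0.30 to 0.31.

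In order of mean level, Gnas came first in both groups, followed by Rgs2 and Arrb1, whose ranges overlapped, and then by Grk5. Gnas was above every other member in every library. Arrb1 was above Grk5 in every library, whereas Rgs2 in saline 3 (5.03 FPKM) was below the 5.42 FPKM of Grk5 there. Below Grk5, the receptors Adra1b, Adrb3 and Adrb1 and the arrestin gene Arrb2 came in that order in saline. In ISO the order was Arrb2, Adrb3, Adra1b and Adrb1. Among these 4, genes next to each other in the order had overlapping ranges in both groups. In ISO, Arrb2 had the highest mean of these 4 (5.04 ± 1.36 FPKM, SD, n = 3), although Adrb3 in ISO 3 (9.21 FPKM) was above all of its values and above Grk5. In saline Arrb2 had the lowest mean of the 4 (2.46 ± 1.98 FPKM, SD, n = 3). Adra1a had the lowest mean in both groups.

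The promoters of 5 of the 9 genes were in the RefSeq table (GRCm38.p6), as windows of 300 bases with 250 before and 50 after the start site. They are shown because cyclic AMP, the messenger of the beta receptors, acts on promoters through the cyclic AMP response element, TGACGTCA, and its shorter core TGACG. Shown are Grk5 and Adra1b, separated upward and downward with all libraries. Also shown are Adrb1 and Rgs2, which joined Adra1b below saline only once saline 3 was left out. Each is given 5′ to 3′ on the gene's strand in lower case, with TGACG or its reverse complement CGTCA in capitals.
Adrb1, chr19:56721867-56722166, plus strand: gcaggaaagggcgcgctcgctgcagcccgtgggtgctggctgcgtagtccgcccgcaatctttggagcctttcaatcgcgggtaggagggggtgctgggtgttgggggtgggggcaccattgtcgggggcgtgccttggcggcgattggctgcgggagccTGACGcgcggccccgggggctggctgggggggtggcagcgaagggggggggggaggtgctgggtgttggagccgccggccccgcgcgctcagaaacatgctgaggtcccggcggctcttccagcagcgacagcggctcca
Rgs2, chr1:144004100-144004399, minus strand: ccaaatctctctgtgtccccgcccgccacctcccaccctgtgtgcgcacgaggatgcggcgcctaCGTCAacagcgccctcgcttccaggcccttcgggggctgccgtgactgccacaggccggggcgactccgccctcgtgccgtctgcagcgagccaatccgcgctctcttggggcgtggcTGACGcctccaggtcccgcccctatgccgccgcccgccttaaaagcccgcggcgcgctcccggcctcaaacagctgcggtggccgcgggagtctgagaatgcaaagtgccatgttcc
Grk5, chr19:60889499-60889798, plus strand: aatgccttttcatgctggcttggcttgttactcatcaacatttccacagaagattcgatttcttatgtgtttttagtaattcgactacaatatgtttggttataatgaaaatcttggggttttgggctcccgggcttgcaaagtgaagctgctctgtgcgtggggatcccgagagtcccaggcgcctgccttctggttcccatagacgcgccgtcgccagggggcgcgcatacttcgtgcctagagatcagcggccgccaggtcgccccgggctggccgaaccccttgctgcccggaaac
Adra1b, chr11:43836440-43836739, minus strand, 1 of 2 start sites: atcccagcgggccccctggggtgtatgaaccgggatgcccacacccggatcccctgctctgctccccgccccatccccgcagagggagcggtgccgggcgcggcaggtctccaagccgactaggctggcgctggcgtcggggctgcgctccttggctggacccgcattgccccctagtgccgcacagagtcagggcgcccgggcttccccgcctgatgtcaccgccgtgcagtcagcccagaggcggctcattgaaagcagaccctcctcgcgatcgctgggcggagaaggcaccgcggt

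The Adrb1 window held 1 TGACG core, beginning 90 bases before the start site. The Rgs2 window held 2, beginning 185 and 67 bases before it, on opposite strands. Of the 4 Gnas windows, 3 held 1 core each, and 2 of these overlap and share the same core. The Grk5 window and both Adra1b windows held none. On either strand, the core was found in 20.8% and the full TGACGTCA, which contains it, in 1.79% of 32851 promoter windows of that length. None of the windows of the 5 genes held the full element. GC content was 72.3% for Adrb1, 70% for Rgs2, 54.3% for Grk5 and 61% to 81.7% for Gnas. For Adra1b it was 71.3% in the window shown and 42.3% in the other. The median over all windows was 52.7%. These are matches of letters and say nothing of binding.

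Genes of the wider pathway were taken from 9 lists, of which 98 genes were in the table and 86 were tested. None was called at the adjusted threshold, and 6 had an unadjusted p under 0.05 (6.98% of 86, against 6.31% over all genes). Of the 86, 61 were higher and 25 lower in ISO (median log2 fold change 0.30, against 0.20 over all genes). The groups did not overlap for 16 genes with ISO higher and 2 with ISO lower, 20.9% of those tested against 16.5% over all genes. Without saline 3 the counts were 20 higher and 12 lower (23% and 14%, against 18.3% and 9.61% over all genes), with a median of 0.074 against 0.063 over all genes.

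Other adrenergic receptors were at low levels. Adra1d, the alpha-1D receptor, was at 1.40, 1.52 and 0.451 FPKM in saline and at 0.170, 0.729 and 1.04 FPKM in ISO. Adra2b, an alpha-2 receptor, was at 4.76 FPKM in saline 3 and at 0.0905 to 1.28 FPKM in the others. Saline 3 was therefore the highest library for Adra1a, Adra1b and Adra2b, and not for Adra1d.

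The other receptor kinases had positive log2 fold changes in 4 of 4 genes (median 0.42), but in 3 of 4 without saline 3 (median 0.21) and in 3 of 4 with median-of-ratios scaling or quantile normalization. Grk4 was at 1.93, 2.58 and 0.283 FPKM in saline and at 3.62, 3.73 and 5.46 FPKM in ISO, with every ISO library higher (log2 fold change 1.13, SE 0.43, adjusted p = 0.699, and 0.68 without saline 3). Grk2, the most abundant receptor kinase here and the one most studied in heart failure, is listed under its older symbol Adrbk1. It was at 33.0, 42.2 and 34.2 FPKM in saline and 40.4, 34.6 and 41.8 FPKM in ISO, and the groups overlapped (log2 fold change 0.09, SE 0.22, adjusted p = 0.866). Grk3, listed as Adrbk2, was at 0.687 FPKM in saline 3 and at 10.3 to 27.9 FPKM in the others, and its log2 fold change went from 0.56 to -0.69 without that library.

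Among G protein genes, 6 of 9 alpha subunits tested and 8 of 9 beta and gamma subunits were higher in ISO. Without saline 3 these were 7 of 8 and 6 of 9, and with median-of-ratios scaling 5 of 9 and 6 of 9. Gnai3, an inhibitory alpha subunit, was at 10.6, 13.0 and 8.58 FPKM in saline and at 15.1, 18.8 and 16.2 FPKM in ISO (log2 fold change 0.60, SE 0.24, adjusted p = 0.699). Gnaq, the alpha subunit of Gq used by alpha-1 receptors, was at 7.86, 9.68 and 1.79 FPKM in saline and at 10.7, 12.4 and 16.3 FPKM in ISO (log2 fold change 1.12, SE 0.51, adjusted p = 0.699, and 0.52 without saline 3). Both were higher in every ISO library than in any saline library. The same held for the gamma subunit gene Gng11, at 136 to 152 FPKM in saline and 197 to 237 FPKM in ISO, and for Gng12 and the beta subunit gene Gnb1.

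Of 13 other RGS genes tested, 11 were higher in ISO (8 without saline 3), and 3 were separated upward. Rgs10 was at 19.9, 18.5 and 28.1 FPKM in saline and at 39.9, 38.3 and 34.9 FPKM in ISO (log2 fold change 0.76, SE 0.24, adjusted p = 0.699). Rgs18, known from platelets and other blood cells, and Rgs3 were separated in the same direction. Rgs10 is also known from macrophages, whose marker sum was higher in every ISO library as given above, and the part of those cells was not tested. Rgs5, a pericyte gene and the most abundant of the list, was at 67.8 to 106 FPKM in saline and 65.3 to 115 FPKM in ISO.

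In the trafficking list, 16 of 19 genes were higher in ISO (median 0.33). Without saline 3 there were 13 (median 0.14), and with median-of-ratios scaling 11 (median 0.14). Cltc, the clathrin heavy chain that coats the pits through which receptors enter the cell, was at 20.7, 20.8 and 12.8 FPKM in saline and at 22.6, 33.6 and 30.6 FPKM in ISO. Vps35, part of the retromer that returns receptors to the surface, was at 14.5 to 20.4 FPKM in saline and 22.2 to 27.8 FPKM in ISO. Neither passed the adjusted threshold (adjusted p = 0.699 for both).

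Downstream of the receptors the directions were mixed. Of 14 genes of cyclases, protein kinase A and phosphodiesterases, 6 were higher and 8 lower (median -0.025), and without saline 3 there were 4 higher and 10 lower (median -0.17). Adcy6, a main cyclase of heart muscle, was at 89.9, 83.1 and 42.4 FPKM in saline and at 103, 89.3 and 38.4 FPKM in ISO, so the third library of each group was low. Pln, the phospholamban gene, was at 402 to 742 FPKM in saline and 156 to 650 FPKM in ISO, with ISO 3 the lowest.

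Of 10 early genes known to be induced by cyclic AMP, 6 were higher and 4 lower (median 0.14). Without saline 3 the balance turned to 3 higher and 7 lower (median -0.15), and median-of-ratios scaling gave 4 higher and 6 lower. Nr4a1, an orphan nuclear receptor gene, was at 22.4, 14.8 and 17.4 FPKM in saline and at 5.51, 11.1 and 16.2 FPKM in ISO (log2 fold change -0.78, SE 0.39, adjusted p = 0.699). Fos and Dusp1 were highest in saline 1 (57.1 and 108 FPKM), against 8.43 to 34.9 and 33.0 to 70.7 FPKM in the others. Their single highest library was thus the one in which Rgs2 was also highest.

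Genes of catecholamine supply were also examined. Slc22a3, an extraneuronal catecholamine transporter, was at 1.07, 0.951 and 3.29 FPKM in saline and at 0.387, 0.388 and 0.509 FPKM in ISO, with every ISO library lower (log2 fold change -0.86, SE 0.39, adjusted p = 0.699). Maoa, which encodes a monoamine oxidase, was at 3.20 to 4.46 FPKM in saline and 4.66 to 5.52 FPKM in ISO. Dbh, the enzyme that makes noradrenaline, was listed at 0 in saline 3 and was at 4.72 to 8.02 FPKM in the others. Th, the first enzyme of that synthesis, was also listed at 0 in saline 3 and reached 1.22 FPKM at most.

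**Figure D4:**
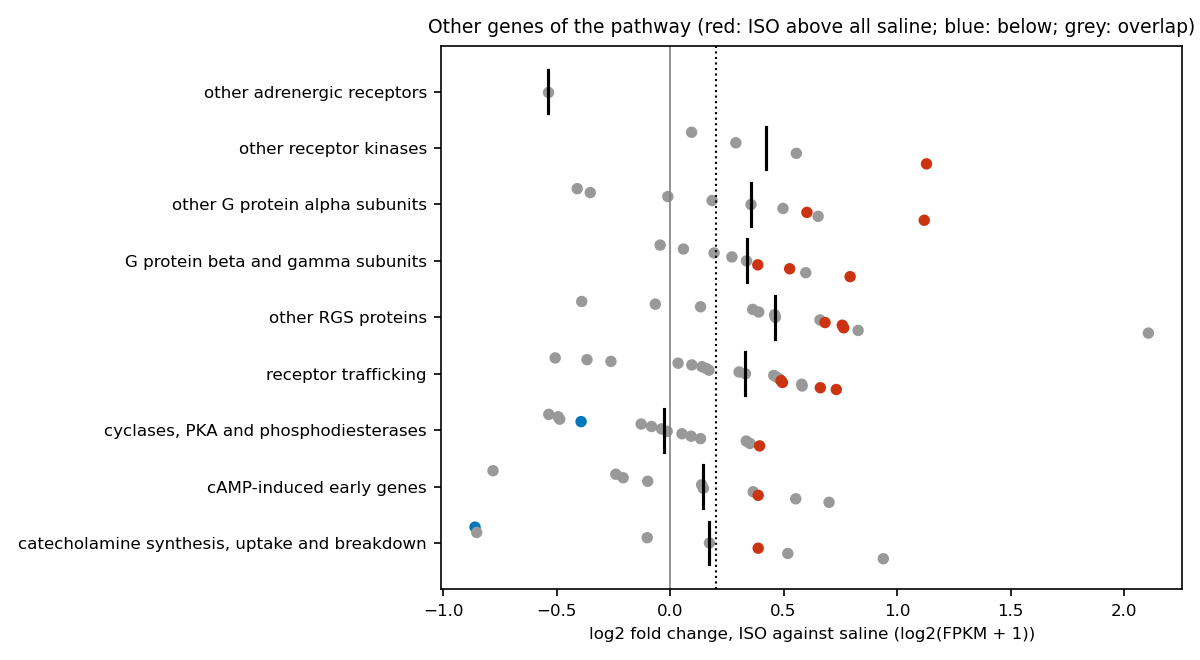
Log2 fold change of ISO against saline for the tested genes of the 9 pathway lists; each dot is 1 gene, red where all ISO libraries are above all saline libraries, blue where all are below and grey where the groups overlap. Black bars are list medians and the dotted line is the median of all genes tested, 0.20; the 4 receptor kinases lie above 0 with all libraries (3 of 4 without saline 3, or under median-of-ratios scaling or quantile normalization), and the cyclase list has a median of -0.025.

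Each member's nearest genes over the 6 libraries were found in the same way as for Adrb3. The first-ranked gene was Dynlt1c for Adrb1 (r 0.980), Ap3s2 for Adra1b (0.994), Syne1 for Arrb1 (0.988), Zfp598 for Arrb2 (0.999), Ssh3 for Grk5 (0.998), Zbtb18 for Rgs2 (0.990) and Calcoco1 for Gnas (0.994). For Arrb2, 597 of 8235 genes reached an r of 0.95, and for Grk5 437 genes did, against 13 each for Adrb1 and Arrb1. Zfp598 was at 8.68 FPKM in saline 3 and at 24.0 to 35.4 FPKM in the others. Likeness to Arrb2 was thus shared by many genes that were low in saline 3.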

How the data were processed

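Polyadenylated RNA was sequenced from left ventricles, with 3 libraries in each of 2 groups. The deposited values are FPKM per gene symbol. The submitters' processing notes name the build GRCm38 and, in no order and with no role, DESeq, Cufflinks 2.2.1, CASAVA 1.8, HTSeq 0.7.2, fastp 0.20.0 and HISAT2 2.1.0. The annotation release, strand setting and tool behind the FPKM are not given in the sources used here.

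Whole reads were recovered from the FPKM steps for 100% of 16816 genes, within 0.0001 of a whole number. A single read on a gene of 1 kilobase then equals 0.101 FPKM in saline 1, the deepest library, and 0.360 in saline 3, the shallowest.

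Genes with a mean of at least 1 FPKM were tested with limma 3.58.1 (R 4.3.3, mean-variance trend) on log2(FPKM + 1), with Benjamini-Hochberg adjustment at 0.05 over all 12269 genes. Single values were compared by two-sided exact permutation tests. The script was tested on simulated data. Other steps used Python 3.11.15, pandas 2.3.3 and scipy 1.17.1. Alternatives were other pseudocounts, filters, scalings, quality weights, a replicate block, limma-voom on recovered reads and each library left out.

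The members and lists were chosen with earlier results of these data known. Named pathway genes are the 2 with the smallest p and up to 4 most abundant in each list, from which those with values worth comparing are printed. Nearest genes are the 3 with the highest Pearson r, of which the first is printed, or for Adrb3 the other two. Adipoq, Ucp1, Myl7 and Th come from the marker and pathway lists and were chosen after their values were seen. Of the listed symbols, Nherf1 and Icer were not matched, and some genes of the lists and rules are not reported here.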

Additional observations from a re-analysis of the deposited data

How the results depend on the processing

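Reads on the receptors in saline 3 were 1 for Adrb1, 3 for Adrb3, 55 for Adra1a and 50 for Adra1b. The interval given above for Adrb1 in saline 3 against saline 1 and 2 covers counting error only. With sample quality weights 1 of 8 members tested, 5 of 86 pathway genes and 768 of 12269 genes in all were called. A call of 1 member among 8 is too few to tell from the share over all genes. Leaving out 1 library gave 0 to 16 genes called in all (16 without ISO 1), and 1 to 3 members separated upward and 1 to 3 downward. Log2 fold changes changed sign for Adrb1 with a pseudocount of 0.1 (0.30) or 0.5 (0.030) and over left-out libraries (-0.73 to 0.40), and for Gnas with quantile normalization (0.10) and over left-out libraries (-0.38 to 0.16). They also changed sign over left-out libraries for Adrb3 (-1.17 to 0.39) and Rgs2 (-0.72 to 0.30). Adra1b, Arrb1, Arrb2 and Grk5 kept their sign in all 16 settings run, and none of them was called in any. The replicate block and the other filters on low values, among these settings, cannot move a log2 fold change. Rgs2 was called only with quality weights.

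Among single values, the difference in the log2 ratio of Grk5 to Adrb1 was 0.40 with 1 FPKM added and ran from -0.96 to 1.25 over left-out libraries. That of the Adrb1 share ran from -4.31 to 17.0 points, of the alpha-1 to beta ratio from -2.16 to 0.33, and of Adrb1 per ventricular marker level from -0.26 to 2.53. The cause was not tested.

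Deviations from the group mean were weakly correlated between same-numbered libraries (0.013, -0.148 and -0.025). With 3 libraries a group, such values cannot show whether the numbers pair the samples. With a replicate block, 0 members, 0 pathway genes and 0 genes in all were called. Each number holds a saline and an ISO library, so the block cannot move a log2 fold change. It can move only the SE and p. For Arrb2 (1.02) the SE was 0.56 without the block and 0.41 with it (limma adjusted p = 0.699 and 0.752).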
